A study of Mus musculus with 16 samples.

Results

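The regions described here are stretches of open chromatin that were listed in brown and in white adipose tissue, fed and fasting, and in no other tissue of the series. ATAC-seq, which reads out where the Tn5 transposase can reach DNA, was run on 8 tissues (Liver, Muscle, Brown_Adipose, White_Adipose, Spleen, Heart, Lung and Kidney) from male mice of the C57BL/6 strain. The groups were Fed, with free access to chow and water, and Fasting. Each of the 16 libraries was made from frozen tissue powder pooled over the mice of 1 group, so there was 1 library per tissue and state, and all tissues of a state came from the same mice. The members were selected on the deposited peak calls: regions with a q of 0.01 or less were merged over the 16 lists where they overlapped by at least 1 bp, and a merged region was kept if it held such a region in all 4 adipose lists and touched no peak of any strength in the other 12 lists. This rule found 2896 members among 760105 merged regions. Because listing in a library chose the members, their ranks are given as a description, and only position, DNA sequence and neighbouring genes were not used by the rule. With 1 library per group no difference could be tested, and the intervals given are exact (Clopper-Pearson) 95% binomial intervals that cover counting error only.

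Adipocytes store triglyceride and release fatty acids on demand, and brown adipocytes also burn them for heat. Their gene programme is set up by PPARγ, which binds a direct repeat of a hormone receptor motif, together with C/EBP factors and, especially in brown fat, EBF2. Enhancers bound by these factors lie mostly in introns and between genes and can act on promoters far away. Both depots also hold endothelial cells, immune cells and progenitors, so in these bulk tissues fewer cells of a type and less open chromatin per cell cannot be told apart.

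To show what such regions look like, the 201 bases around the summit of 9 members are printed from the plus strand of GRCm38. They were chosen after their values were seen. Abcg1 is the member of highest mean rank. Cyp4f39, Cdh13, Cnga4 and Uqcrfs1 are high-ranked members that hold a C/EBP, EBF, PPAR and NFI motif, in this order. They were picked among part of the members in introns or between genes. A Prkar2b member with a PPAR motif, in an exon of a non-coding transcript, had a mean rank of 92.5, above 91.1 for Cnga4. Adipoq lies at the start of the adiponectin gene. Scd1 and Vldlr are the highest-ranked members near genes of the adipocyte lists with a C/EBP and a PPAR motif. The 9530068E07Rik member is the only one with all 4 motifs. The names are those of the nearest protein-coding gene. Capitals mark the matches to these 4 motifs, and the Abcg1 and Adipoq windows held none.
Abcg1 (chr17:31103094-31103294): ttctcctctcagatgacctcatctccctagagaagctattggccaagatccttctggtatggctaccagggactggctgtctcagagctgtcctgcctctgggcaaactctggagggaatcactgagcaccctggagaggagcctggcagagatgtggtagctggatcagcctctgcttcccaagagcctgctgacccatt
Cyp4f39 (chr17:32440744-32440944): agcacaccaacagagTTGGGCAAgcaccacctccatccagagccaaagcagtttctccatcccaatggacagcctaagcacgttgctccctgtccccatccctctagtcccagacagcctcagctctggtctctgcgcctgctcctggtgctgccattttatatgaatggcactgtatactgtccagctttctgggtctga
Cdh13 (chr8:118143482-118143682): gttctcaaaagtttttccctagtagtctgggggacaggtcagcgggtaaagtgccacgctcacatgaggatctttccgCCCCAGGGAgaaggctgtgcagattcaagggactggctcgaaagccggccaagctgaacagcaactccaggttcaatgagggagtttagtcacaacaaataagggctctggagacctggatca
Cnga4 (chr7:105409532-105409732): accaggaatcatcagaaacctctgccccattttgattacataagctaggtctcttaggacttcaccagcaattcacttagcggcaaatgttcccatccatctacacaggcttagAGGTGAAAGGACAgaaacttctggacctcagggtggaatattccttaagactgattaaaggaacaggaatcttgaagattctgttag
Uqcrfs1 (chr13:30561672-30561872): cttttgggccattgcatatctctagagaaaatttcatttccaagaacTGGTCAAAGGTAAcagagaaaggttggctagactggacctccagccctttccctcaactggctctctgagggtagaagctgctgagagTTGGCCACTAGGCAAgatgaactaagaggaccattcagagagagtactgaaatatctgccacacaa
Adipoq (chr16:23146279-23146479): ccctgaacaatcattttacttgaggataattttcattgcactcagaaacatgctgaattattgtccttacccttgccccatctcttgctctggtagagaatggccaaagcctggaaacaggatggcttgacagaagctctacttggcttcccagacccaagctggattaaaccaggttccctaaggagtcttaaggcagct
Scd1 (chr19:44438021-44438221): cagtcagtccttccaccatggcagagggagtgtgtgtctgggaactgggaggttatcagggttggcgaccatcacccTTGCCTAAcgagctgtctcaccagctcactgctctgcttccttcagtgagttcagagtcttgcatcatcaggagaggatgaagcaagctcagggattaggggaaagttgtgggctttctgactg
Vldlr (chr19:27195391-27195591): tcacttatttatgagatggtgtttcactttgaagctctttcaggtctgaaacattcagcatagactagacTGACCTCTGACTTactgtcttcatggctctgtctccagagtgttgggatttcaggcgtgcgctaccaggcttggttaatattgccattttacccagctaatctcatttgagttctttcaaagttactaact
9530068E07Rik (chr11:52533439-52533639): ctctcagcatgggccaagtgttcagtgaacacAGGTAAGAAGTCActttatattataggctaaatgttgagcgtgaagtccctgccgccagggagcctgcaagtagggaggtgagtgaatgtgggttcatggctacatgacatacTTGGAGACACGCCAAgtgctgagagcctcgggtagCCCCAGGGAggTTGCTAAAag

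The 9 printed windows lay between genes, except that of Abcg1, which lay in an intron of the gene. In the Vldlr window the PPAR match sat 24 bp from the summit and differed from the repeat at 1 position, whereas the Cnga4 match differed at 2 positions. The Scd1 window held its C/EBP match 19 bp from the summit. In the Uqcrfs1 window a PPAR match and an NFI match lay 47 and 42 bp from the summit.

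Regions of this kind made up a small part of the open chromatin of fat. Of 59296 merged regions present in all 4 adipose sets, 2896 (4.88%) had no peak in the 12 other libraries, and 24590 (41.5%) had a peak in all 12. A further 1890 regions (3.19%) missed membership through a single other library, most often fasting liver (347 regions) or fasting muscle (299 regions), and the median rank of that peak in its own list was 30.2 on a scale where 100 is the strongest. Under the same rule for other pairs of tissues, Liver and Kidney shared 3891 regions, Spleen and Lung 2025 and Muscle and Heart 1379, and the median over the other 27 pairs was 261. Brown or white adipose tissue paired with any tissue but each other gave between 25 and 355 regions.

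**Figure D1:**
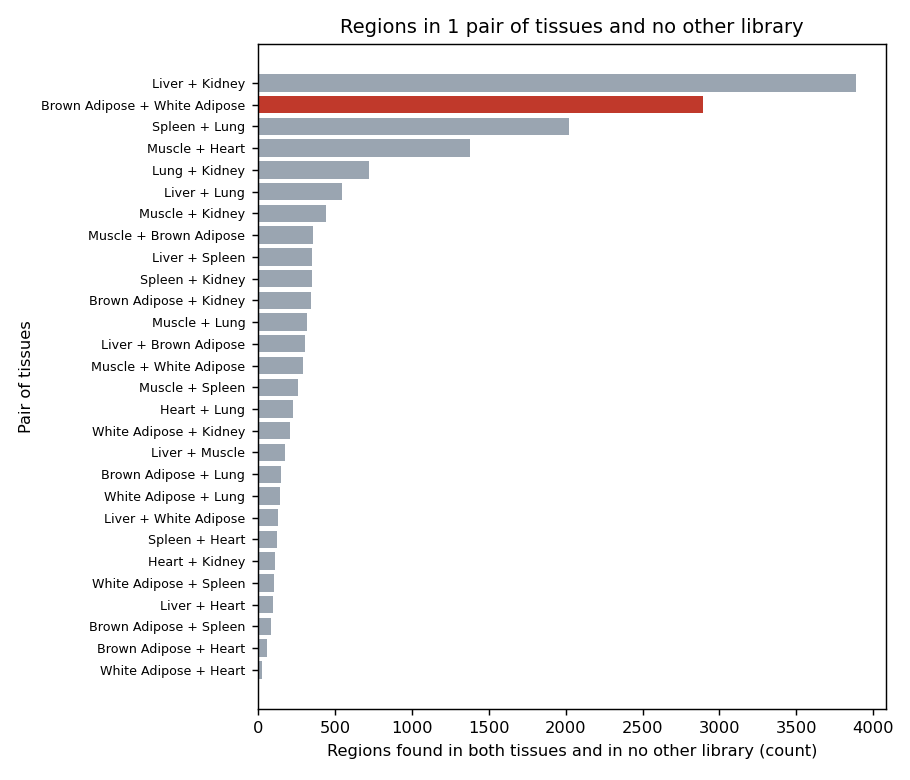
Number of merged regions (horizontal axis) present in all 4 libraries of a pair of tissues (rows) and overlapped by no peak of the other 12 libraries. The brown and white adipose pair, in red, holds 2896 regions, second to Liver and Kidney with 3891.

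At the limit of the rule, the weakest member had a −log10 q of 2.02 in fasting brown and 2.01 in fasting white adipose tissue, and the strongest region left out for fasting brown alone had 1.99. The 2 fed adipose lists ended above the threshold, at −log10 q of 5.26 in brown and 4.22 in white, so in them a region was either listed at that strength or absent. Regions present in 3 of the 4 adipose sets and no other library numbered 144 without fed brown, 1115 without fasting brown, 1251 without fed white and 592 without fasting white. Depth differed as well: the background tags expected at a summit, solved from the deposited fold and p, were 12.8 in fed brown, 6.76 in fasting brown and 5.87 in fasting white, with fed white in between, and 2.80 to 10.6 in the other 12 libraries. Of the other 12 lists, 6 also ended while still under a q of 0.01, at −log10 q of 2.04 to 3.26, since every list was kept to nearly the same number of rows. Not being listed in another tissue therefore means either not called at that depth or weaker than the last row kept, and the part of depth and of list length in membership was not tested.

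The adipose labels were compared with genes known to mark fat, by the strongest peak within 3000 bp of a start. The promoter of Adipoq, which encodes the hormone adiponectin, ranked between 85.9 and 91.8 in the 4 adipose libraries, that of the lipid droplet coat gene Plin1 between 90.2 and 94.1, and that of leptin (Lep) between 88.4 and 95.1. These windows were not all closed elsewhere: 8 of the other 12 libraries had a peak at Adipoq, with ranks up to 97.4, all 12 had a peak at Plin1, up to 97.1, and 5 had a peak at Lep, up to 48.5. The promoter of Ucp1, the uncoupling protein of brown fat, ranked 92.4 and 89.5 in brown but 9.98 in fed white, with no peak in fasting white. Promoters of 10 epididymal epithelium genes had a mean rank of 49.3 in fed white, against 0 to 4.29 in the other 3 adipose libraries and at most 25.4 in any other tissue. Those of 7 macrophage genes had a mean rank of 35.9 in fed white and 65.0 in fasting white. No member had a gene of either list as its nearest gene, but these lists are nearest to only 0.0134% and 0.0243% of all merged regions, so a count of 0 says little. Without the fed white library the rule gave 4220 members.

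Members lay away from gene starts. Of the 2896, 595 (20.5%, 19.1 to 22.1) had a summit within 3000 bp of an annotated transcript start, compared with 23.6% of all merged regions, 42.4% of the regions in all 4 adipose sets, 25.7% for Muscle and Heart, 28.2% for Liver and Kidney and 24.5% for Spleen and Lung. The median distance to a protein-coding start was 31822 bp, against 25969 bp for all merged regions and 12511 bp for the regions in all 4 adipose sets. Introns held 52.7% of the summits, intergenic DNA 39.7%, coding exons 2.76% and untranslated exons 2.18%. A CpG ratio above 0.6, a mark of CpG islands, was found around 2.04% of the summits, against 3.97% of all merged regions, 1.83% to 3.34% in the other 3 pairs and 22.2% of the regions in all 4 adipose sets. The members were 98 to 1867 bp long, with a median of 428 bp against 354 bp for merged regions in exactly 4 sets of any kind. Their median GC content was 46.8%, against 49.3% in all merged regions, and 3.14% of the windows were mostly repeat sequence, against 7.63%.

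In all, 1011 members (34.9%) lay within 50 kb of another member, a share like that of Muscle and Heart (33.1%) and Spleen and Lung (36.8%) and below that of Liver and Kidney (44.0%). There were 9 runs of at least 5 members. The gene with most members was Prkar2b, which encodes a regulatory subunit of protein kinase A that is abundant in fat: 8 members lay within chr12:32058361-32130650, with mean ranks from 48.8 to 92.5. A run of 6 members at chr7:35138234-35203988 had as nearest genes Cebpa, which encodes the adipocyte factor C/EBPα, and Slc7a10, an amino acid transporter gene of white adipocytes. Another 6 lay at chr15:103009370-103053399 next to Hoxc4 and Hoxc6, homeobox genes of body position. The neurotrophin receptor gene Ntrk3 and Bmper, which encodes a BMP-binding protein, had 6 members each. Acvr1c, the gene of the activin receptor ALK7 that is known to restrain lipolysis, had 5, of which 4 lay inside the gene, and the repressor gene Zeb2, the calcium exchanger gene Slc24a3, Anks1b, Ankef1, Ankfn1 and 4931428L18Rik also had 5 each. Of 1728 genes with a member as nearest start within 100 kb, 1384 had exactly 1, and 691 members had no protein-coding start within 100 kb.

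The DNA of the members was rich in C/EBP motifs. The motif TTGCNNAA was found within 100 bp of the summit in 793 members (27.4%, 25.8 to 29.0), against 8.52% of all merged regions, 11.1% of those in exactly 4 sets and 12.5% of those in all 4 adipose sets. The share was 6.60% for Muscle and Heart, 11.6% for Liver and Kidney and 8.59% for Spleen and Lung, so the intervals of the members and of each of these sets were apart. The EBF motif TCCCNNGGG followed, with 289 members (9.98%, 8.91 to 11.1) against 3.95% of all merged regions and 2.11% to 3.60% of the other 3 pairs. The regions in all 4 adipose sets held it in 6.24%, nearer to the members. Every search used both strands, and the same 201-base window in every set.

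The PPAR motif behaved otherwise. A direct repeat of AGGTCA with 1 base between and up to 2 mismatches was found in 138 members (4.77%, 4.02 to 5.61), close to the 4.44% of all merged regions and below the 5.54% of those in exactly 4 sets. Liver and Kidney regions held the repeat in 12.7% (11.7 to 13.8). The other pairs were below the members, at 2.54% (1.77 to 3.51) for Muscle and Heart and 2.62% (1.97 to 3.41) for Spleen and Lung. The same repeat is also bound by other nuclear receptors, among them HNF4α of liver and kidney. The NFI motif, TTGGC and GCCAA with 5 bases between and up to 1 mismatch, was found in 45 members (1.55%, 1.14 to 2.07). All merged regions held it in 0.833%, but the regions in all 4 adipose sets held it in 1.46%, close to the members. With no mismatch allowed, the share of members did not stand above that of all merged regions (a difference of 0.00467 percentage points). Overlaps between the motifs were counted for each motif.

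Of 9 other motifs, none had an interval wholly above the share in all merged regions. The HNF1 motif, a repeat of GTTAAT and ATTAAC with 1 base between and up to 2 mismatches, was found in 0.242% of members, 1.40% of all merged regions and 17.7% of the Liver and Kidney regions. The MEF2 motif, CTA and TAG with 4 bases between, was found in 2.45%, against 3.39% of all merged regions and 17.0% of the Muscle and Heart regions. The PU.1 motif GAGGAAGT was found in 0.829%, against 2.14% of all merged regions and 9.53% of the Spleen and Lung regions. CTCF, searched as CCNCNAGG and GGC with 1 base between and 1 mismatch, matched 3.97% of members, 6.39% of all merged regions, 3.26% to 5.98% of the other 3 pairs and 20.2% of the regions in all 4 adipose sets. Of the remaining 5 searches, AP-1 (TGA and TCA with 1 base between) and the glucocorticoid receptor (GNACA and TGTNC with 3 between) had shares near those of all merged regions, 7.18% against 7.22% and 0.863% (0.559 to 1.27) against 0.721%. The ETS motif CGGAAG was lower, at 2.83% against 3.74%. The GATA motif AGATAA was found in 6.32% against 8.27%. For the myogenic E-box, CAGCTG, the shares were 12.3% and 14.5%. In all, 60.3% of the members and 83.2% of all merged regions held none of the C/EBP, EBF, PPAR and NFI motifs.

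**Figure D2:**
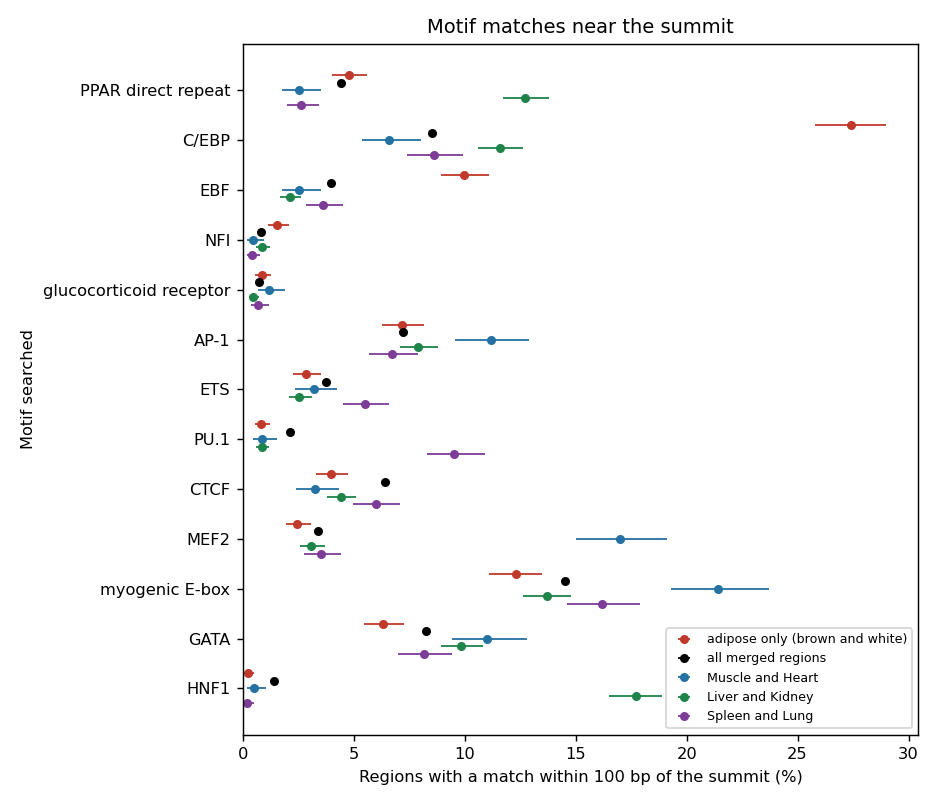
Share of regions with a motif match within 100 bp of the summit (horizontal axis, percent) for 13 motifs (rows), in the adipose-only members, all merged regions and the regions shared only by 3 other pairs of tissues. Bars are exact 95% binomial intervals, and the C/EBP point of the members, at 27.4%, lies farthest from the other sets.

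Not every form of the C/EBP motif was raised. TTGCAAAA was found in 4.39% of members against 0.764% of all merged regions, and TTGCACAA in 4.28% against 0.834%. The palindrome TTGCGCAA was rare, with 8 members, but its share was 5.37 times that of all merged regions. By contrast, TTGCTGAA had nearly equal shares, 1.04% and 0.954%. Among all words of 8 bases, ranked by the difference in share between members and all merged regions and so chosen for it, the first was TTGTGAAA (4.94% against 1.03%), followed by TTGCAAAA, TTGCACAA and TTGAGAAA (4.63% against 1.28%). The words ACTTGGCA (3.80% against 1.32%) and GCCAAGAA (3.66% against 1.29%), which hold the TTGGC or GCCAA of the NFI motif, were also among the first 15.

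The C/EBP matches were placed around the summit in a pattern that all merged regions shared at a lower level, whereas the EBF matches of members showed no clear pattern. In bins of 10 bp, C/EBP matches were centred in 2.56% of members at 45 bp on one side of the summit and in 2.45% at 55 bp on the other, but in 0.794% at 5 bp. For all merged regions these shares were 0.580%, 0.580% and 0.269%. EBF matches were centred in 1.10% of members (32) at 35 bp on one side, in 0.829% (24) at 55 bp on the other, and in 0.622% and 0.552% (18 and 16) in the bins next to the summit. For all merged regions the bins next to the summit held 0.248% and 0.257%, and those 2 flanking bins 0.230% and 0.209%. The EBF shares of all merged regions were thus slightly higher next to the summit. In members, those 2 flanking bins were the highest of each side. The bins at the same distances on the opposite sides held 0.518% (15) each, below those next to the summit. With such counts the order of these bins in members cannot be told.

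**Figure D3:**
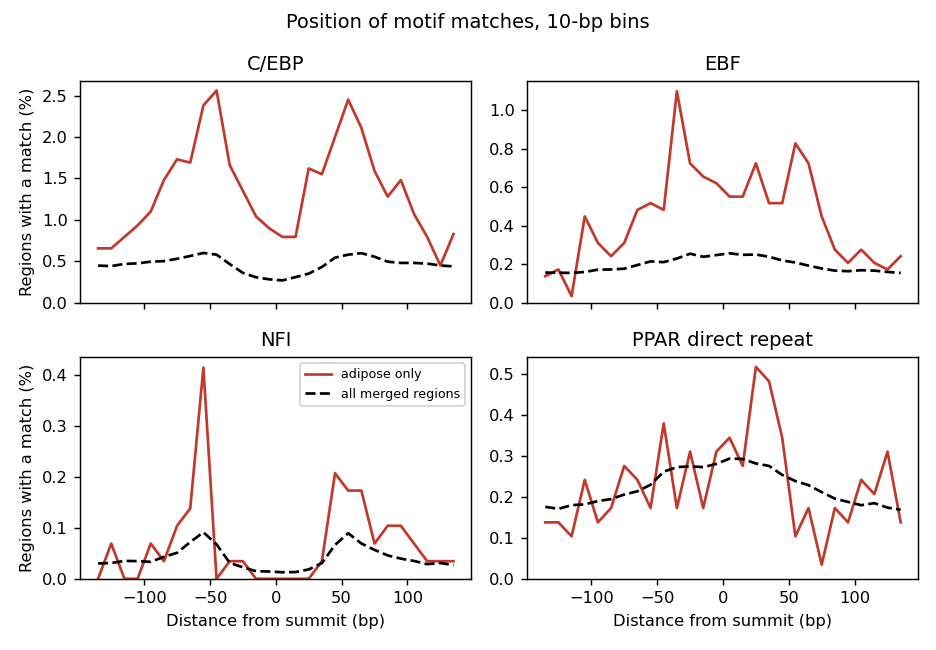
Share of regions (vertical axis, percent) with a motif match centred in each 10-bp bin by distance from the summit (horizontal axis, bp), for members (solid red) and all 760105 merged regions (dashed black). C/EBP matches in members peak at 2.56% and 2.45% on either side of the summit and dip to 0.794% next to it, and each panel has its own vertical scale.

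The genes next to the members included many that adipocytes use. Of 93 genes in 7 adipocyte lists, 39 (41.9%) were the nearest protein-coding gene of a member within 100 kb, while members reached 1728 of 21829 protein-coding gene names (7.92%) and 5 of 73 genes in lists of other cells (6.85%). The other pairs of tissues reached 5, 14 and 6 of the same 93 genes (Muscle and Heart, Liver and Kidney, Spleen and Lung). By region, 56 members (1.93%, 1.46 to 2.50) had a gene of the adipocyte lists as nearest, against 0.605% of all merged regions and 1.19% of those in all 4 adipose sets. The promoters of these 39 genes were mostly open elsewhere too: each had a promoter peak in at least 1 of the 12 other libraries, and 31 had a peak in all 12. For 8 of them a member lay within 3000 bp of the nearest start.

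Adipoq had a pair of members at its start. The first, chr16:23146239-23146756, had its summit 157 bp upstream and ranked 85.9 in fed brown, 89.6 in fasting brown, 86.0 in fed white and 84.4 in fasting white. The second, in an intron 433 bp downstream, ranked 68.8, 77.9, 46.4 and 18.2 in the same order. Within 3000 bp of the Adipoq start, 8 of the 12 other libraries did have a peak, so the adipose-only stretches lay beside sequence that was open elsewhere.

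Among transcription factors, members lay next to 5 of 12 listed genes. The 8 members were 0.276% of all members (0.119 to 0.544). All merged regions had 0.122% and the regions in all 4 adipose sets 0.231%, both within that interval. Cebpa had a pair 19090 and 19450 bp from its start, and the second (chr7:35138581-35138840) ranked 90.5, 91.0, 92.0 and 90.5 in fed brown, fasting brown, fed white and fasting white, which is nearly level. An intronic member of Prdm16, a regulator of the brown fat programme, ranked 85.9, 81.5, 63.1 and 70.3. In an intron of Pparg itself, the member 13796 bp downstream ranked 73.3, 76.9, 6.60 and 72.9, so that fed white stood apart from the other 3 libraries. Mlxipl, the gene of the glucose-responsive factor ChREBP, showed a similar pattern, with 77.3, 80.5, 26.9 and 78.8. Ebf2 had a pair of members, at mean ranks of 56.9 and 37.0.

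Genes of fatty acid handling and lipid storage were also reached. The fatty acid uptake list had 0.311% of members (0.142 to 0.589), against 0.0916% of all merged regions and 0.194% of the regions in all 4 adipose sets. The list of lipid synthesis and glucose uptake had 0.38% (0.19 to 0.679), against 0.118% and 0.214%. For both lists, the share of the regions in all 4 adipose sets lay within the interval. For the caveolar coat gene Cavin1, the member 747 bp upstream (chr11:100971334-100971840) ranked 88.5, 88.7, 83.6 and 91.1. Upstream of Scd1, the desaturase that makes oleate, the printed member ranked 76.8 and 81.9 in brown and 92.9 and 94.0 in white, and so was higher in white in both states. The member 21529 bp upstream of Vldlr, a lipoprotein receptor gene, ranked 88.8, 89.1, 65.2 and 81.0. Dgat1 and Dgat2, which encode the enzymes of the last step of triglyceride synthesis, had 2 and 3 members, of which the highest in mean rank reached 81.4 and 60.4. Lpl, the lipase that frees fatty acids from lipoproteins, and Cd36, a fatty acid transporter gene, had 1 intronic member each, with mean ranks of 62.5 and 54.7.

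Lipid droplet genes came next, with 0.173% of members (0.0561 to 0.402). All merged regions had 0.0554% and the regions in all 4 adipose sets 0.145%, the latter within that interval. Pnpla2, the gene of the first lipase of triglyceride breakdown, had a pair of members 2918 and 739 bp upstream, and the farther ranked 77.9, 88.2, 76.0 and 90.6. Both fasting libraries were above both fed ones there. The intronic member of Mgll, the monoglyceride lipase gene, held a C/EBP motif and ranked 73.7, 87.1, 61.9 and 74.6. A member 86 bp from the start of Plin1 ranked 65.4, 73.7, 26.6 and 46.9.

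The receptors of adipocytes had more members than any other adipocyte list: 16 members next to 10 of 14 genes. These were 0.552% of members (0.316 to 0.896), against 0.101% of all merged regions and 0.197% of the regions in all 4 adipose sets. Ptger3, a prostaglandin E receptor gene, had 4, with mean ranks from 46.4 to 74.8. Tshr, the thyrotropin receptor gene, had 1 intronic member with a C/EBP motif that ranked 81.2, 90.0, 83.2 and 87.2. Adrb3, a receptor gene that carries the signal of noradrenaline to fat, had a member at 83.1, 85.7, 75.0 and 64.1, and Adrb1 had 1 of mean rank 62.8. The lactate receptor gene Hcar1 and Npr3, the natriuretic peptide clearance receptor gene, had 2 members each. Those of Npr3 ranked higher in white than in brown when fed, at 73.4 against 47.0 and 86.5 against 66.8. When fasting, the first was still higher in white, at 72.4 against 61.4, and the second was not, at 67.9 against 72.6.

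Thermogenic genes had 5 members, at 5 of 14 genes. This was 0.173% of members (0.0561 to 0.402). All merged regions had 0.0753% and the regions in all 4 adipose sets 0.121%, so the count cannot be told apart from either share. The Ucp1 member, chr8:83309812-83310256, lay 19738 bp downstream of the start and ranked 80.4 in fed brown, 94.7 in fasting brown, 78.7 in fed white and 94.3 in fasting white. White and brown were thus level there, although the Ucp1 promoter itself was near or at the bottom in white. Members of Ppargc1b, a coactivator gene, and of Dio2, which encodes the deiodinase that activates thyroid hormone, had mean ranks of 80.4 and 77.5. The Dio2 member ranked 91.5, 95.3 and 79.6 in fed brown, fasting brown and fed white and 43.6 in fasting white.

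Genes that mark other cells of fat had members at about the background share. The 9 lists of other cells together had 7 members (0.242%, 0.0972 to 0.497). All merged regions had 0.292% and the regions in all 4 adipose sets 0.304%, so the count cannot be told apart from either share. Of these, 5 lay next to progenitor genes, with 3 at Zfp423 (a regulator of preadipocytes), 1 at Dlk1 and 1 at Pi16, and 1 lay next to the endothelial gene Vwf. The macrophage, skeletal muscle, epididymal, mesothelial, Schwann and smooth muscle lists had none, which for a count of 0 in 2896 allows up to 0.127% (exact interval). The same 6 lists are nearest to 0.0130% to 0.0263% of all merged regions, so these counts cannot be told apart from the background share.

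None of the 15 members of highest mean rank had a listed gene as its nearest gene. Only 1.93% of all members had a gene of the adipocyte lists as nearest and 0.242% a gene of the other lists, so this says little. A rank is the percentile of a region by p within its own library. The highest mean rank, 95.1, belonged to chr17:31102703-31103643 in an intron of Abcg1, a cholesterol exporter gene, with 97.6, 98.4, 91.9 and 92.3 in fed brown, fasting brown, fed white and fasting white. Next came a member 303809 bp from Frg1 at 94.1, an intronic member of Capsl at 93.9 and a member inside Cnnm2, with Nt5c2 as the nearest start, at 93.4. Members next to Runx1, Zc3h12a, Lyrm1, Cdh13, Cyp4f39 and Hsd17b6 also had mean ranks from 92.0 to 93.3. Among members within 3000 bp of any transcript start, the highest mean rank was 91.2, for a member 116 bp from a start that is not of its nearest protein-coding gene, Rpl34, which began 154337 bp away. Next were the second of the Cebpa pair at 91.0 and a member 170 bp from a start, at 90.7, whose nearest protein-coding gene, Ankef1, began 13775 bp away. The 3 lowest were next to Nrg2 (19.3), Fgfr2 (22.6) and Dlc1 (23.6).

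**Figure D4:**
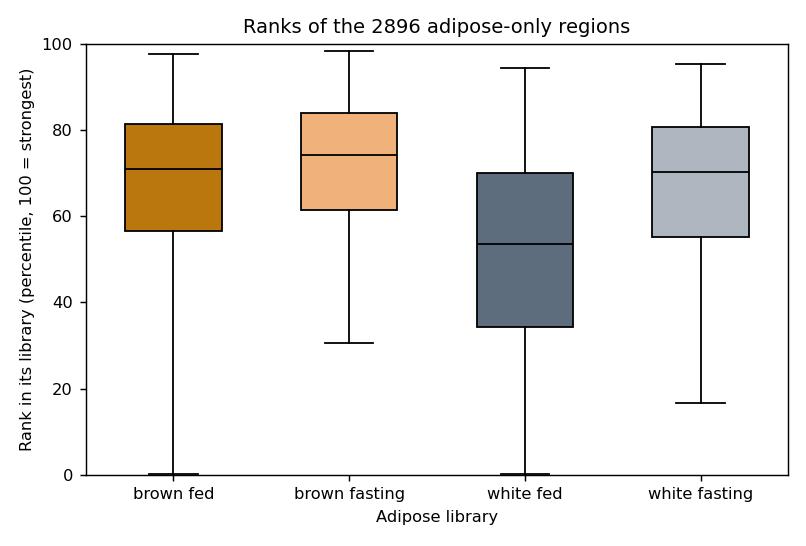
Rank of the 2896 members (vertical axis, percentile within the library, 100 is the strongest) in the 4 adipose libraries. Boxes span the middle of the distribution with the median as a line and whiskers reach the lowest and highest member; the medians are 70.9, 74.2, 53.5 and 70.2, with fed white the lowest.

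Across all members, the median rank was 70.9 in fed brown, 74.2 in fasting brown, 53.5 in fed white and 70.2 in fasting white. The median fold enrichment over background, which the authors did not scale between libraries, was 6.52, 4.11, 3.90 and 4.06. Compared with the 59296 regions in all 4 adipose sets, however, members were among the weaker: ranked among those regions alone, their medians were 39.9, 36.5, 23.1 and 29.7. Ranks went together more within a tissue than between tissues. Pearson's r over the 2896 members was 0.70 for fed and fasting brown and 0.52 for fed and fasting white, and 0.21 to 0.31 for a brown with a white library; these points share libraries and depth, and the values are a description. In 5 equal groups by mean rank, the C/EBP share ran from 24.1% in the lowest to 29.7% in the next and was 27.3% in the highest. The EBF share was 8.45%, 8.98%, 9.67%, 11.1% and 11.7% from the lowest group to the highest.

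With fasting, members ranked higher in white, while in brown the difference was close to that of other adipose regions. The median difference in rank, fasting minus fed, was 13.2 points in white, where it was 2.53 for the regions in all 4 adipose sets, and 3.27 points in brown, where it was 2.54. When ranks were taken among the regions in all 4 adipose sets only, the brown median turned to −1.56 and the white median was 4.34. In white, 1080 members (37.3%) were higher by at least 20 points, against 16.8% of the regions in all 4 adipose sets, and 119 (4.11%) were lower by that much, against 3.27%. In brown, 322 (11.1%) were higher, near the 9.33% of those regions, and 90 (3.11%) were lower, against 1.36%. In both tissues, 164 members (5.66%) were higher by that much, against 3.37% of the regions in all 4 adipose sets, and 9 were lower (0.311%) against 0.113%. Both differences share the lower floor of the fed lists, which let members in at ranks down to 0.167 and 0.129, while no member could rank below 30.6 in fasting brown or 16.7 in fasting white. The part of this floor and of the epididymal and macrophage promoters of the white libraries was not tested.

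**Figure D5:**
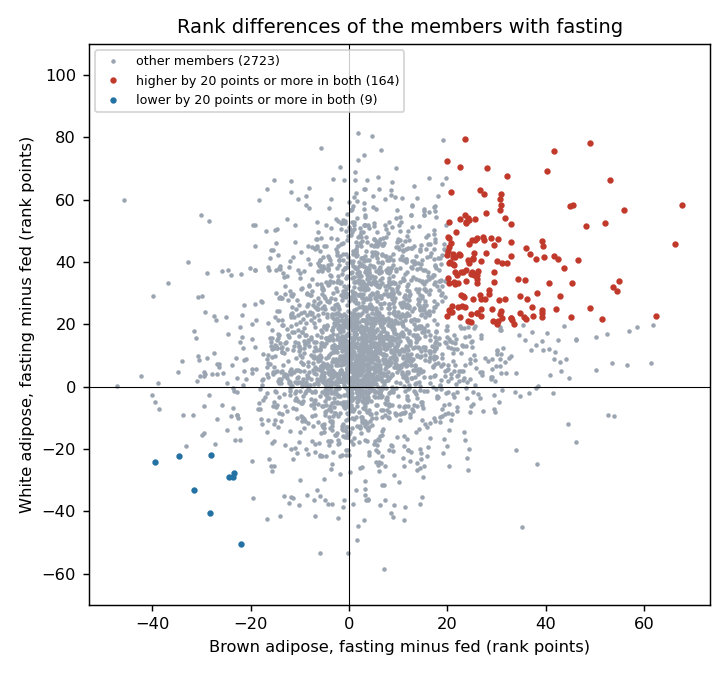
Difference in rank, fasting minus fed, of the members in brown adipose tissue (horizontal axis, rank points) and white adipose tissue (vertical axis, rank points), 1 point per member. The 164 members higher by 20 points or more in both tissues are red and the 9 lower by as much in both are blue; more points lie above the horizontal line than below it.

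The members with the largest increase in both tissues, chosen for it, were low in both fed libraries. A member in an intron of Epm2a, the gene of the glycogen phosphatase laforin, ranked 1.63 fed and 69.4 fasting in brown, and 16.7 fed and 75.0 fasting in white. The member next to Cbx6 went from 3.20 to 59.2 and from 14.5 to 71.1. Those next to 1700066M21Rik and Gm9817 were also among the first 5 and were higher by at least 49.0 points in each tissue. Among listed genes, the Ppargc1a member ranked 57.9 and 77.1 in brown and 0.658 and 79.7 in white.

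The largest decreases in both tissues were smaller. The member near Rap2a went from 64.8 to 33.3 in brown and from 76.8 to 43.6 in white. Members in or near Arsb, Igfbp7, Pcsk2 and Malt1 decreased by 23.5 to 40.5 points in each tissue. The Rap2a and Arsb members ended at 33.3 in fasting brown, close to the floor of 30.6, whereas the others ended between 40.2 and 63.3. Of the 164 members higher in both tissues, 48 (29.3%, 22.4 to 36.9) held a C/EBP motif, against 27.3% of the rest.

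Between the tissues, members ranked higher in brown. The median of brown minus white, averaged over both states, was 9.95 points, against 0.0388 for the regions in all 4 adipose sets, and it was 14.7 points fed and 4.39 points fasting. In both states, 407 members (14.1%) ranked at least 20 points higher in brown, against 5.44% of the regions in all 4 adipose sets, and 96 (3.31%) ranked at least 20 points higher in white, against 3.49%. Fed brown was also the deepest library, and without it the median was 4.19 on the fasting state alone. The floors of the fasting lists differed too: no member could rank below 30.6 in fasting brown or 16.7 in fasting white. The part of these floors in the difference between tissues was not tested.

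The brown side was led by an intronic member at Sucla2, the gene of a subunit of succinyl-CoA ligase, with 89.6 fed and 94.1 fasting in brown and 22.4 and 22.8 in white. A member upstream of Rev3l with an EBF motif ranked 87.7 and 91.4 in brown and 25.8 and 22.8 in white, and the members next to Mamld1, Fbxw4 and Fbxo15 followed. On the white side, the member 323451 bp upstream of Maf, a transcription factor gene, ranked 89.7 and 87.4 in white and 12.3 and 33.3 in brown. Members next to Ddx18, Fndc3b, Plekhg1 and Prps1l1 completed the first 5. These 10 members were chosen for this difference. Several lay near the floor of a fasting list. The Maf, Ddx18, Fndc3b and Plekhg1 members ranked 33.3 in fasting brown, and that of Prps1l1 45.8. In fasting white, the Sucla2, Rev3l and Mamld1 members ranked 22.8, that of Fbxo15 25.5 and that of Fbxw4 31.3.

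Motif content was then set beside these tissue differences. Of the 407 members higher in brown, 54 (13.3%, 10.1 to 17.0) held an EBF motif and 86 (21.1%, 17.3 to 25.4) a C/EBP motif, whereas the other 2489 members held them in 9.44% and 28.4%. Of the 96 higher in white, 9 (9.38%, 4.38 to 17.1) held an EBF and 35 (36.5%, 26.9 to 46.9) a C/EBP motif. For C/EBP the intervals of the brown-high and white-high members were apart, and for EBF they overlapped.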

How the data were processed

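ATAC-seq libraries of 8 tissues, fed and fasting, were used as deposited peak lists, 1 per library. Per the labels and the study's methods, the authors trimmed reads, aligned them to GRCm38 with Bowtie2, removed unmapped and duplicate reads and called peaks with MACS2, and versions were not given in the sources used here. Fold enrichment, as deposited by the authors, is a ratio of summit tags to background tags of the same library, and the deposited significance columns are the authors' −log10 p and −log10 q. Neither is scaled between libraries, so regions were ranked by p within each list (0 to 100, ties averaged), with rows of the same coordinates taken as 1 region. Summits came from the row of smallest p, and the window was 100 bp on each side.

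Starts and genes came from GENCODE vM21, and sequence from the RefSeq copy of GRCm38. Coordinates are 1-based. A difference of 20 rank points was called, with no test, since each group had 1 library. Members, gene lists and motifs were chosen with earlier results of these data known. Named members are the 15 of highest mean rank, the 10 genes with most members, members next to listed genes, the 10 highest within 3000 bp of a start, the 5 largest differences each way and the 3 lowest. Interval, motif and tag-solving steps were checked on simulated data. Python 3.11.15, numpy 2.4.6, pandas 2.3.3 and scipy 1.17.1 were used. Alternatives covered the q threshold, list length, exclusion, libraries left out, promoter and gene distance, ranking, window, mismatches and comparison regions, of which regions over 3000 bp from a start were added after seeing the data. Some genes that the naming rule reaches are not reported here.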

Additional observations from a re-analysis of the deposited data

Results flagged for a closer look

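A few members moved in opposite directions with fasting in the 2 adipose tissues. There were 20 members that were lower by at least 20 points in brown and higher by as much in white (0.691%, against 0.202% of the regions in all 4 adipose sets), and 6 that did the reverse (0.207% against 0.457%). The 3 listed here moved by over 30 points each way. With 1 library per group the difference between tissues was not tested.

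In Ces1c, a carboxylesterase gene, a member 17004 bp from the start with a C/EBP motif differed by −45.7 points in brown and 59.9 points in white: it ranked 79.0 fed and 33.3 fasting in brown, and 22.4 fed and 82.3 fasting in white. In Unc79, an intronic member differed by −36.8 points in brown and 33.4 points in white. Upstream of Cpvl, a member differed by 35.2 points in brown and −45.0 points in white, from 7.78 to 43.0 and from 71.1 to 26.0. Each of these members had a value low in a list. The Ces1c member ended in fasting brown close to the floor of 30.6. That of Unc79 ranked 4.71 in fed white, and that of Cpvl started low in fed brown. The part of the list floors in these differences was not tested.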

How the results depend on the processing

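Each result was recomputed under the alternatives listed with the methods. Brown fasting minus fed turned to −1.56 when ranks were taken among regions in all 4 adipose sets (white 4.34, brown minus white 9.17), and the PPAR difference in share turned from 0.323 to −0.779 percentage points against regions in exactly 4 sets (C/EBP 16.3). At a q of 1e-06 in the adipose lists 1564 members and 31 next to adipocyte genes were left, with medians of 3.83 in brown and 8.86 for brown minus white, and at a q of 0.001 the medians were 3.70 in brown and 14.1 in white. With the 50000 rows of smallest p of each adipose list, 400 members and 12 next to adipocyte genes were left, 19.0% were promoter members, the medians were 2.18, 5.38 and 3.47 (brown, white, brown minus white) and the EBF difference was 7.55. Leaving out each adipose library, or each other tissue from the exclusion, gave 3208 to 4220 members, 20.2% to 21.4% promoter members and 58 to 83 next to adipocyte genes. The same left-out libraries gave medians of 3.19 to 4.08 in brown, 12.4 to 13.6 in white and 4.19 to 16.7 for brown minus white, lowest without fed brown and highest without fasting white. Differences in share then ran from 0.0165 to 1.39 for PPAR, highest without liver, 16.8 to 20.3 for C/EBP, 4.78 to 6.53 for EBF and 0.601 to 0.977 for NFI. Promoter members were 7.53% within 1000 bp and 9.12% with protein-coding starts, any start of a listed gene within 100 kb gave 108 members, and ranking by fold gave a white median of 11.4. With 50 bp on each side the differences were 8.96 for C/EBP, 3.72 for EBF and 0.0134 for NFI, and with the other number of mismatches 16.1, 11.4 and 0.00467. The causes of these changes were not tested, except that stricter thresholds leave fewer regions. Depth limits what absence from a list means, since libraries differed in expected tags, and no paired analysis was possible because each group had 1 library.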
